A study of Mus musculus with 23 samples.

Results

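Anti-Rtl1 microRNAs (miRNAs) are 5 hairpin precursors, miR-431, miR-433, miR-127, miR-434 and miR-136, that lie on the strand opposite the coding sequence of Rtl1 in the imprinted Dlk1-Dio3 domain of mouse chromosome 12. Both mature arms of each precursor were taken by name from the deposited count tables, which gave 10 members among the 1915 miRNA names counted in every library. All 10 passed the filter on low counts, which kept 669 names for testing.

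The tissue was dissected brain of C57BL/6 mice, labelled as Cdr1as knockout or wild type, and 23 small RNA libraries were sequenced from cerebellum, cortex, hippocampus and olfactory bulb. Each region had 3 knockout and 3 wild type libraries, except that knockout hippocampus had 2, numbered 2 and 3. Cdr1as is a circular RNA of neurons that carries many binding sites for miR-7, and the knockout lacks its locus. The sources used here do not give the age and sex of the mice or whether libraries of a group came from separate animals, so the p-values describe the variation from library to library, and several regions may have been taken from one mouse.

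In the Dlk1-Dio3 domain the noncoding RNAs, including the anti-Rtl1 transcript that carries these hairpins, are expressed from the maternal chromosome, whereas Rtl1, a protein-coding gene derived from a retrotransposon, is expressed from the paternal one. Because the hairpins are antisense to Rtl1, their mature arms pair along their whole length with Rtl1 mRNA, and in the mouse several of them are known to direct its cleavage. Each hairpin is cut into a 5p and a 3p arm, and usually one of these is loaded into Argonaute more often than the other.

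The 10 mature sequences, from RefSeq on GRCm38.p6, are shown 5′ to 3′ because the seed, bases 2 to 8 in capitals, sets which other messages an arm can recognise.
miR-431-5p: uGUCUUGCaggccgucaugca
miR-431-3p: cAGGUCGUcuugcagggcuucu
miR-433-5p: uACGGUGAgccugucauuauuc
miR-433-3p: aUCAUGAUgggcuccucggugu
miR-127-5p: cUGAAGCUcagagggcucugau
miR-127-3p: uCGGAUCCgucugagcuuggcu
miR-434-5p: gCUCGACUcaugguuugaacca
miR-434-3p: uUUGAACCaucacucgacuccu
miR-136-5p: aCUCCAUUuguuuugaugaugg
miR-136-3p: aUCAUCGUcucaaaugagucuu

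No 2 members had the same seed, and 0 of the 10 seeds occurred in another mature mouse miRNA of the RefSeq table. All members were 22 nucleotides long except miR-431-5p, with 21. The GC content ran from 36.4% in both miR-136 arms to 59.1% in miR-431-3p and miR-127-3p. The longest run of bases in common between members was the 10-base GUCUUGCAGG of the miR-431 arms, followed by the 9-base UUUGAACCA of the miR-434 arms.

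The hairpins lie on the plus strand of chromosome 12 in the order Mir431 (chr12:109590447-109590537), Mir433 (chr12:109591715-109591838), Mir127 (chr12:109592846-109592915), Mir434 (chr12:109594506-109594599) and Mir136 (chr12:109595327-109595388). These are GRCm38.p6 positions from the reference annotation, not positions from the deposited tables, which were made on an earlier build. The cluster spans 4942 bases, and all 10 arms fall within the Rtl1 coding sequence, annotated on the minus strand at chr12:109590172-109595403 in the last exon. Each arm had 1 perfectly complementary site in the 6358-nucleotide Rtl1 transcript. The sites of the most abundant arm of miR-127 and of miR-434 are shown as Rtl1 mRNA-sense DNA, with the bases that face the seed in capitals.
Rtl1 site of miR-127-3p: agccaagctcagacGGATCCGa
Rtl1 site of miR-434-3p: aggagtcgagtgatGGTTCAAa

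A neighbouring hairpin, miR-432, had 0 counts in the 23 libraries, and the arms of miR-3071, which overlaps Mir136 on the other strand, had 1 count in all. Rtl1 mRNA and Cdr1as were not measured in these libraries, so neither the deletion nor the target could be read from them.

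**Figure D1:**
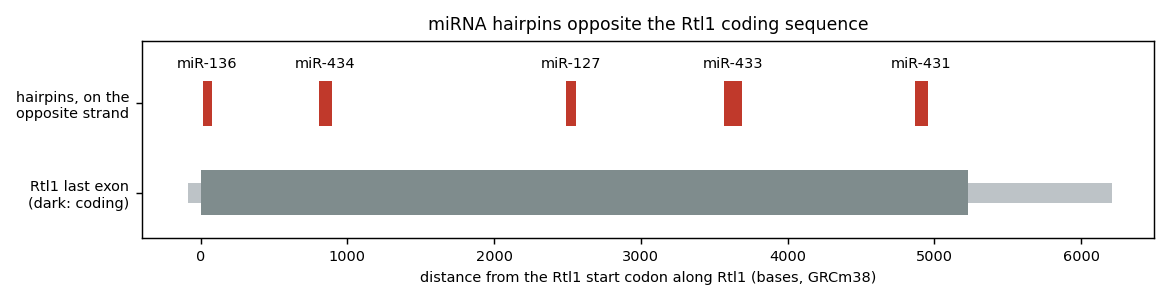
The 5 hairpins (red) above the last exon of Rtl1 (light grey, with the coding sequence in dark grey), placed by distance in bases from the Rtl1 start codon along Rtl1. All 5 hairpins stand over the coding sequence, from miR-136 next to the start codon to miR-431 near the stop codon.

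Library totals ran from 2328929 to 13070794 counts, and the lowest totals of the cortex groups belonged to the libraries numbered 3, with 2328929 counts in knockout cortex and 4774415 in wild type cortex. Member counts per library ran from 44 for miR-433-5p to 447254 for miR-434-3p. The labelled region was checked with 8 miRNAs of the miR-200 and miR-183 groups, known markers of olfactory bulb. Their summed level was 218992 to 393961 normalised counts (CPM, counts per 1000000 of a library total multiplied by its TMM factor) in knockout bulbs and 271194 to 300792 CPM in wild type bulbs. In cortex it was 141 to 445 CPM in knockout libraries, against 3676 to 6802 CPM in wild type libraries, and none of the 8 was at 0 in any group. The part of this difference in any cortex result was not tested. In bulk tissue, fewer cells of a type and less RNA per cell cannot be told apart.

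The anti-Rtl1 arms were abundant in every region. Together they made up 6.08% to 6.73% of all miRNA counts in knockout hippocampus and 6.16% to 6.46% in wild type hippocampus. The shares were 4.21% to 4.79% in knockout cortex and 4.42% to 4.68% in wild type cortex. Cerebellum held 3.45% to 3.79% in knockout libraries and 3.29% to 3.71% in wild type libraries, and olfactory bulb 1.37% to 1.63% in knockout libraries and 1.38% to 1.64% in wild type libraries. The genotype ranges overlapped in all 4 regions, whereas the ranges of the 4 regions did not overlap each other. The largest share came from miR-434 in every group. In hippocampus miR-434 held 52.8% ± 2.35 of the member counts in knockout libraries (SD, n = 2) and 47.3% ± 0.825 in wild type libraries (SD, n = 3). For miR-127 the hippocampus shares were 34.6% ± 1.53 in knockout libraries (SD, n = 2) and 39.3% ± 0.418 in wild type libraries (SD, n = 3). Genotype differences in these shares were not tested. In cerebellum miR-434 and miR-127 held 46.6% ± 0.487 and 37.2% ± 0.276 of the member counts in knockout cerebellum, against 45.0% ± 3.26 and 38.4% ± 2.85 in wild type cerebellum (SD, n = 3 each). In cortex miR-434 held 68.0% ± 2.70 in knockout libraries and 66.9% ± 1.13 in wild type libraries (SD, n = 3 each). The shares of miR-127 there were 12.8% ± 1.80 in knockout cortex and 12.8% ± 1.85 in wild type cortex (SD, n = 3 each), below those of miR-136, at 17.1% ± 4.39 in knockout cortex and 18.3% ± 1.45 in wild type cortex (SD, n = 3 each). In olfactory bulb, too, miR-136 held more than miR-127, with 20.6% against 13.8% in knockout libraries and 21.0% against 14.2% in wild type libraries.

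The study's question was whether loss of Cdr1as changes miRNAs in the brain, and none of the 10 anti-Rtl1 arms passed the test in any region. Averaged over the 4 regions, their log2 changes (knockout over wild type) ran from -0.05 for miR-136-3p to 0.16 for miR-433-5p, with a median of 0.01, beside a median of -0.00 over all 669 miRNAs. The 95% intervals of these averages lay between -0.24 and 0.40, so no arm's interval reached beyond a 1.32-fold change in either direction. The fit treats all libraries as independent, so these intervals may be too narrow if regions came from the same mice. With edgeR's quasi-likelihood test and Benjamini-Hochberg adjustment over 669 miRNAs, 0 of 10 members were called in the average, where the smallest adjusted p was 0.808 and 1.49% of all miRNAs were called. Within regions 0 of 10 were called in cerebellum (0.149% of all miRNAs), cortex (2.09%), hippocampus (0% of all miRNAs) and olfactory bulb (0.149%). In cerebellum, the deviations of same-numbered knockout and wild type libraries from their group means had r from 0.103 to 0.374. A replicate block gave 4 calls there in place of 1 over all miRNAs and 0 members. It gave 2 in place of 0 in hippocampus and 2 in place of 1 in bulb, again with 0 members. The test of a genotype effect that differs between regions called 0 of 10 members and 1.64% of all miRNAs, with a smallest unadjusted p of 0.369 among the members. DESeq2 and limma-voom also called 0 members in the average and in each region.

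Before adjustment, 1 member fell under 0.05 in the average of regions and 1 in hippocampus by edgeR, while DESeq2 had 0 and 1 and limma-voom 2 and 1. The first was miR-433-5p, the least abundant member. It had 36.8 and 35.7 CPM in knockout hippocampus, against 31.8, 31.6 and 28.4 CPM in wild type hippocampus. In olfactory bulb it had 19.9, 16.9 and 23.2 CPM in knockout libraries and 20.1, 15.2 and 16.2 CPM in wild type libraries. The knockout libraries were all above the wild type ones in hippocampus and overlapped them in bulb. Its average log2 change was 0.16 with an SE of 0.07 (95% interval 0.01 to 0.30), an unadjusted p of 0.0423 and an adjusted p of 0.808, and its group mean was higher in the knockout in 4 of 4 regions.

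The other was miR-434-3p, which had the highest mean CPM of the members in all 8 groups. In hippocampus it had 26870 and 24218 CPM in knockout libraries, against 21543, 21971 and 19517 CPM in wild type libraries. In cerebellum it had 18963, 18526 and 18895 CPM in knockout libraries and 18151, 18266 and 17363 CPM in wild type libraries. Both pairs of groups did not overlap, with the knockout above the wild type. In hippocampus the log2 change was 0.28 with an SE of 0.12, an unadjusted p of 0.0280 and an adjusted p of 0.715, and in cerebellum it was 0.07 with an SE of 0.11 and an adjusted p of 1. Groups without overlap were found for 1 member in cerebellum and 2 in hippocampus, where 7.03% and 16.9% of all miRNAs had them. Cortex and olfactory bulb had 0 such members, beside 7.62% and 6.43% of all miRNAs. In hippocampus the summed level of 7 choroid plexus and ciliated cell miRNAs was 3281 to 3556 CPM in knockout libraries and 3061 to 13143 CPM in wild type libraries, with 0 of the 7 at 0, and its part in these values was not tested.

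**Figure D2:**
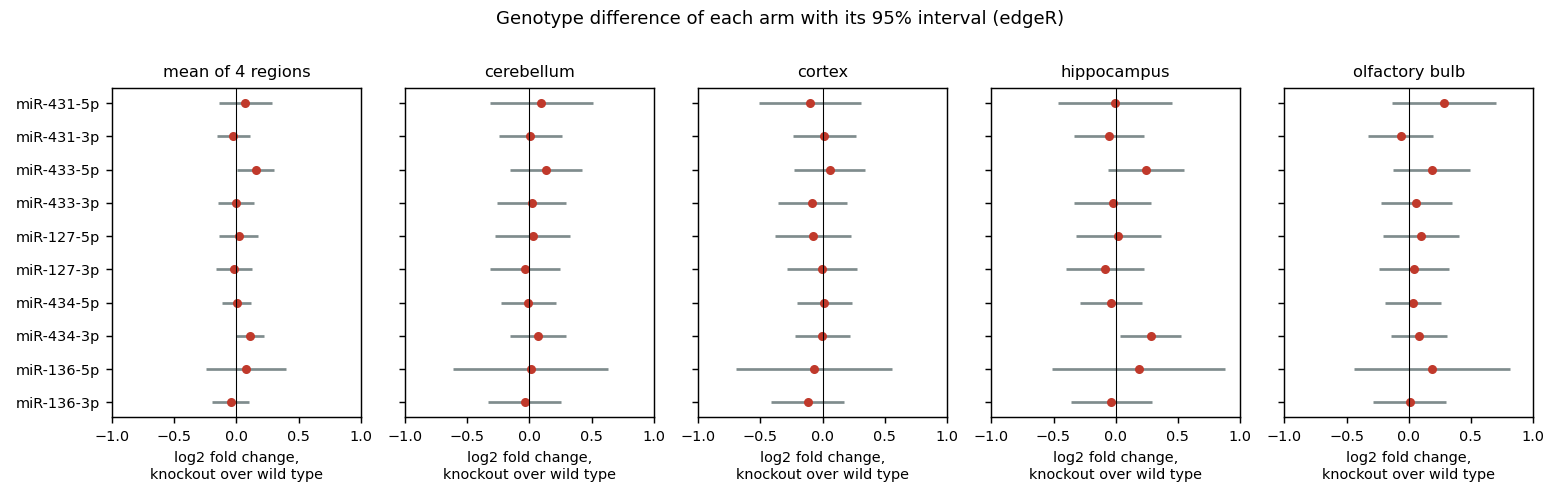
Log2 fold change of Cdr1as knockout over wild type (points) with its 95% interval (lines) for each arm, in the mean of 4 regions and in each region, from edgeR. The 40 region estimates lie between -0.12 and 0.29 and 39 of the 40 intervals hold 0, the exception being miR-434-3p in hippocampus.

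The remaining estimates were small beside their errors. Over the 40 combinations of member and region the intervals lay between -0.69 and 0.88, and 40 of 40 were within 1 log2 unit of 0. The widest belonged to miR-136-5p, with an average log2 change of 0.08 and an SE of 0.15. For miR-127-3p the average change was -0.02 with an SE of 0.07, and for miR-434-5p 0.00 with an SE of 0.05. At this number of libraries, changes inside the interval of an arm were not excluded for that arm.

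The largest differences between brain regions were far above those between genotypes. Not every pair of regions was far apart, as wild type hippocampus against cortex had 2 of 10 arms called (20% of all miRNAs). The arm that differed most was miR-127-3p. This arm, known in the mouse as a guide for the cleavage of Rtl1 and needed in the placenta, had 16546 and 17174 CPM in knockout hippocampus and 18176, 18666 and 16720 CPM in wild type hippocampus. Cerebellum was close to that, with 15344, 14754 and 15234 CPM in knockout libraries and 14310, 14420 and 17770 CPM in wild type libraries. In cortex it had 3560, 3235 and 4340 CPM in knockout libraries and 3272, 3600 and 4311 CPM in wild type libraries. Hippocampus and cerebellum were thus high and cortex low in both genotypes, with no overlap between them. Olfactory bulb had the lowest level, at 2693, 2113 and 2938 CPM in knockout libraries and 2307, 2497 and 2703 CPM in wild type libraries.

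In wild type libraries miR-127-3p was higher in hippocampus than in cortex by a log2 change of 2.26 (SE 0.14, edgeR adjusted p = 4.76e-10) and than in olfactory bulb by 2.83 (SE 0.14, adjusted p = 1.02e-12). It was higher in cerebellum than in cortex by 2.06 (SE 0.14, adjusted p = 9.47e-11) and than in olfactory bulb by 2.63 (SE 0.14, adjusted p = 1.80e-12). Cortex exceeded bulb by 0.58 (SE 0.14, adjusted p = 0.00121). The neighbouring levels in this order, hippocampus and cerebellum, did not pass the test, with a log2 difference of 0.20 (SE 0.13, adjusted p = 0.203). With library size as the only scaling that difference was 0.91 and passed (adjusted p = 2.61e-06). Over all alternatives the wild type differences of this arm stayed past the threshold at 2.17 to 2.50 for hippocampus over cortex, 2.76 to 3.75 for hippocampus over bulb, 1.35 to 2.44 for cerebellum over cortex, 2.51 to 2.94 for cerebellum over bulb and 0.45 to 1.48 for cortex over bulb. The knockout libraries, which are other samples, gave 2.18 for hippocampus over cortex, 2.71 for hippocampus over bulb, 2.03 for cerebellum over cortex and 2.55 for cerebellum over bulb. The highest region mean of miR-127-3p was 6.53 times the lowest in knockout libraries and 7.13 times the lowest in wild type libraries.

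The other arm of the same hairpin did not share this pattern. miR-127-5p had 625 and 529 CPM in knockout hippocampus and 522, 626 and 555 CPM in wild type hippocampus. It had 664.95, 600.05 and 402.70 CPM in knockout cortex, against 602, 633 and 525 CPM in wild type cortex. Cerebellum had 499, 460 and 504 CPM in knockout libraries and 443, 496.1 and 499 CPM in wild type libraries, and olfactory bulb 479, 422 and 382.02 CPM in knockout libraries and 426, 381.3 and 395 CPM in wild type libraries. These ranges overlapped between hippocampus and cortex, where the arm's wild type log2 difference was -0.05 (SE 0.15, adjusted p = 0.866). Its highest region mean was 1.35 times the lowest in knockout libraries and 1.47 times in wild type libraries. In wild type it was called higher in hippocampus than in bulb (0.50, SE 0.15, adjusted p = 0.00603) and in cortex than in bulb (0.55, SE 0.15, adjusted p = 0.00329). Calls in the cerebellum pairs depended on the scaling: with library size only they were 0.95 for hippocampus over cerebellum, -0.98 for cerebellum over cortex and 0.47 for cerebellum over bulb (adjusted p = 7.64e-06, 4.49e-06 and 0.00764), and with upper quartile scaling 0.56 for cerebellum over bulb (adjusted p = 0.00284). Without knockout cortex 3, cerebellum was called lower than cortex (-0.30, adjusted p = 0.0254).

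**Figure D3:**
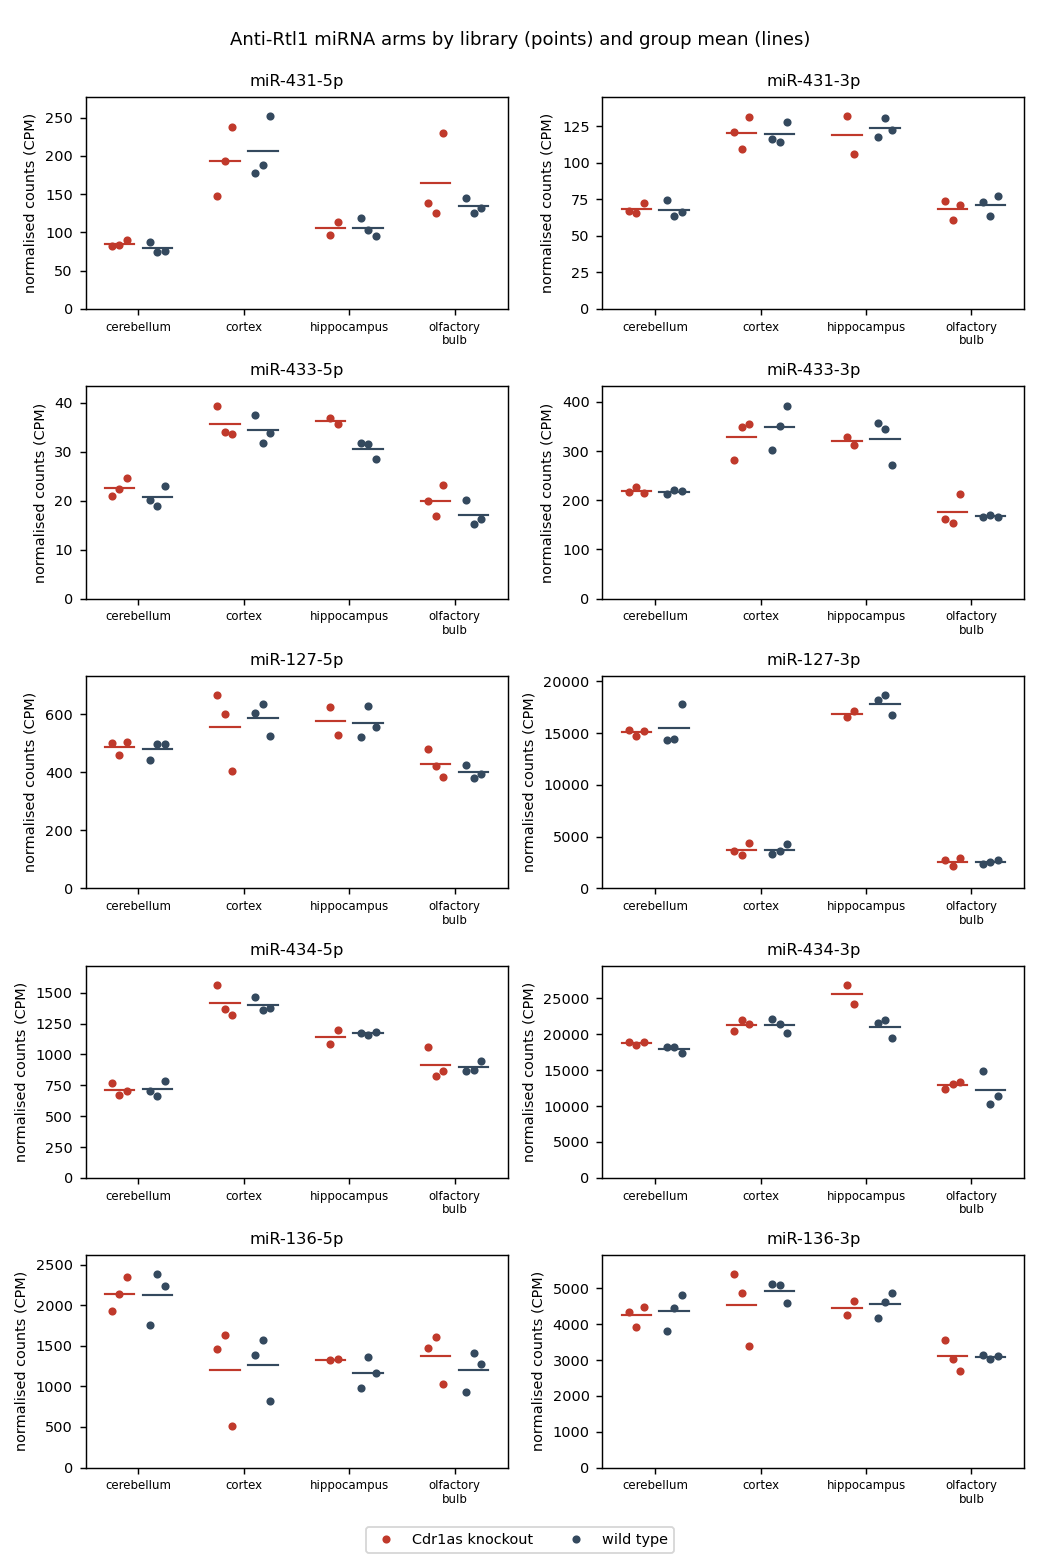
Normalised counts (CPM, each vertical axis starting at 0) of the 10 arms by region, with knockout libraries (red) left of wild type libraries (dark blue) and group means as lines. The genotypes overlap in each region except for miR-434-3p in cerebellum and hippocampus and miR-433-5p in hippocampus, where knockout is higher, and miR-127-3p stands between 14310 and 18666 CPM in cerebellum and hippocampus and between 2113 and 4340 CPM in cortex and olfactory bulb.

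miR-434-3p was lowest in olfactory bulb. There it had 12377, 13018 and 13332 CPM in knockout libraries and 14853, 10346 and 11332 CPM in wild type libraries. In cortex it had 20466, 21923 and 21450 CPM in knockout libraries and 22184, 21463 and 20234 CPM in wild type libraries, all above every bulb library. The wild type log2 differences were 0.79 for hippocampus over bulb (SE 0.11, adjusted p = 3.21e-06), 0.81 for cortex over bulb (SE 0.11, adjusted p = 2.76e-06) and 0.56 for cerebellum over bulb (SE 0.11, adjusted p = 0.000176). Cerebellum against cortex was at the threshold, with -0.25 (adjusted p = 0.0497). That call was lost on leaving out any of 17 single libraries (adjusted p 0.0503 to 0.117), and with upper quartile scaling the difference was 0.13.

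Its partner miR-434-5p had its lowest mean in cerebellum. It averaged 715 ± 46.6 CPM in knockout cerebellum and 719 ± 63.0 CPM in wild type cerebellum, and 1416 ± 130 CPM in knockout cortex and 1401 ± 55.5 CPM in wild type cortex (SD, n = 3 each). Hippocampus had 1142 ± 84.4 CPM in knockout libraries (SD, n = 2) and 1173 ± 13.5 CPM in wild type libraries (SD, n = 3), and olfactory bulb 917 ± 127 and 895 ± 41.7 CPM in knockout and wild type libraries (SD, n = 3 each). Cerebellum was below cortex in wild type by a log2 difference of -0.96 (SE 0.11, adjusted p = 1.31e-07), and hippocampus was above cerebellum by 0.71 (SE 0.11, adjusted p = 9.14e-06). It was also called higher in hippocampus (0.39) and cortex (0.65) than in bulb. Cerebellum was below bulb by -0.36 in knockout libraries (adjusted p = 0.00757) and by -0.32 in wild type libraries (adjusted p = 0.0162). That difference did not hold with upper quartile scaling (-0.01 in both genotypes), with library size only (-0.06 in knockout and -0.10 in wild type libraries) or with no filter (adjusted p = 0.193 in knockout and 0.212 in wild type libraries). In wild type it was also lost without cerebellum 2 or bulb 3 (adjusted p = 0.0763 and 0.0624).

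Both arms of miR-433 followed one order, with cortex and hippocampus above cerebellum and bulb. miR-433-3p averaged 328.997 ± 40.3 CPM in knockout cortex and 348 ± 45.4 CPM in wild type cortex, against 176 ± 32.2 CPM in knockout bulb and 167 ± 1.65 CPM in wild type bulb (SD, n = 3 each). Its wild type log2 differences were 1.06 for cortex over bulb (SE 0.14, adjusted p = 1.83e-06) and 0.96 for hippocampus over bulb (SE 0.14, adjusted p = 5.00e-06). miR-433-5p, the rarer arm by counts, had 0.99 and 0.82 for the same pairs (adjusted p = 6.28e-06 and 4.90e-05).

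The arms of miR-431, a miRNA known in mouse sensory neurons to favour axon regrowth, were both lower in cerebellum than in cortex. miR-431-5p had 147, 193 and 238 CPM in knockout cortex and 178, 188 and 252 CPM in wild type cortex, against 81.8, 83.1 and 89.7 CPM in knockout cerebellum and 87.9, 74.3 and 76.3 CPM in wild type cerebellum. These libraries did not overlap, and the wild type log2 difference for cerebellum over cortex was -1.37 (SE 0.20, adjusted p = 5.24e-06). The arm was also lower in wild type hippocampus than in cortex, by -0.96 (SE 0.20, adjusted p = 0.00125), while miR-431-3p differed there by only 0.05 (SE 0.12, adjusted p = 0.832). The call of miR-431-5p for cortex over bulb in wild type (0.62, adjusted p = 0.0125) was lost without wild type cortex 3 (adjusted p = 0.0911). miR-431-3p was lower in wild type cerebellum than in cortex by -0.81 (SE 0.12, adjusted p = 7.17e-06). Cerebellum and bulb were not separated for that arm, with log2 differences of 0.00 in knockout (adjusted p = 0.985) and -0.07 in wild type libraries (adjusted p = 0.664), although upper quartile scaling called knockout cerebellum higher (0.35, adjusted p = 0.0328).

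miR-136-5p was the one arm with its highest mean in cerebellum. It had 1930, 2139 and 2344 CPM in knockout cerebellum and 1755, 2380 and 2237 CPM in wild type cerebellum. In cortex it had 1457, 1632 and 515 CPM in knockout libraries and 1387, 1570 and 823 CPM in wild type libraries, where the libraries numbered 3 were lowest in both genotypes. The wild type log2 difference for cerebellum over cortex was 0.75 (SE 0.30, adjusted p = 0.0354), but it lost the call without any 1 of wild type cerebellum 2 or 3, wild type cortex 1 or 3, or knockout hippocampus 3 (adjusted p 0.0534 to 0.168). Hippocampus was below cerebellum by -0.86 (SE 0.30, adjusted p = 0.0195), with adjusted p values of 0.0630 without wild type cerebellum 2 and 0.0766 without wild type hippocampus 1. With library size only, these differences were 0.06 for cerebellum over cortex and -0.15 for hippocampus over cerebellum (adjusted p = 0.872 and 0.676), and leaving the bulb markers out of the library size gave 0.05 and -0.15 (adjusted p = 0.891 and 0.675). With TMM scaling its partner miR-136-3p was called against bulb and in no other wild type pair, with log2 differences of 0.56 for hippocampus, 0.50 for cerebellum and 0.68 for cortex. With library size only it was also called for hippocampus over cerebellum (0.77, adjusted p = 1.41e-05) and cerebellum over cortex (-0.87, adjusted p = 2.78e-06).

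Counted over the 10 arms in wild type libraries, olfactory bulb was low against hippocampus and cortex. Hippocampus had 8 arms higher and 0 lower than bulb, where 53.4% of all 669 miRNAs were called in either direction, and cortex had 9 higher and 0 lower, where 53.2% were called. The median log2 difference of the members was 0.67 and 0.66 in these pairs, beside 0.01 and -0.06 over all miRNAs. Cerebellum had 5 arms higher and 2 lower than bulb (55.5% of all miRNAs called) and 2 higher and 6 lower than cortex (62.6%). Hippocampus had 4 higher and 1 lower than cerebellum (57.7%) and 1 higher and 1 lower than cortex (20%), the last 2 being miR-127-3p and miR-431-5p. The 8 and 9 of 10 called in hippocampus and cortex against bulb were above these background shares. The 8 of 10 between cerebellum and cortex and the 7 of 10 between cerebellum and bulb were nearer to them. The first of these fell to 5 with upper quartile scaling and the second to 4 without wild type cerebellum 2, settings whose background shares are not given. The 5 of 10 and 2 of 10 for hippocampus against cerebellum and cortex were near the background shares. With 10 arms, the difference from the background was not tested. The background also holds rarer miRNAs, since only 306 of the 669 were at least as abundant as the lowest member.

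The knockout libraries gave similar counts. Hippocampus had 8 arms higher and 1 lower than bulb (47.1% of all miRNAs called), and cortex had 8 higher and 0 lower (50.7%). Cerebellum had 4 higher and 2 lower than bulb (52.8%) and 2 higher and 5 lower than cortex (59.8%). Hippocampus had 5 higher and 0 lower than cerebellum (52.9%), and 1 higher and 1 lower than cortex (12.7%). The call of miR-431-5p in the last pair was lost without knockout cortex 3 (adjusted p = 0.0537) or knockout hippocampus 2 (adjusted p = 0.127).

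These splits depend on how libraries of different regions are scaled. TMM factors were 1.22 to 1.41 in cortex and hippocampus and 0.620 to 0.937 in bulb and cerebellum, and their part in the changes was not tested. With library size as the only scaling, wild type hippocampus had 9 arms higher and 0 lower than cerebellum, wild type cerebellum had 1 higher and 8 lower than cortex, and wild type cerebellum had 7 higher and 0 lower than bulb. Upper quartile scaling gave 7 higher and 0 lower for wild type cerebellum against bulb and 2 higher and 3 lower for wild type cerebellum against cortex. In knockout libraries the library size splits were 9 and 0 for hippocampus against cerebellum, 1 and 8 for cerebellum against cortex, 7 and 1 for cerebellum against bulb, 9 and 0 for hippocampus against bulb, and 1 and 2 for hippocampus against cortex. Upper quartile scaling gave 3 and 1, 2 and 4, 8 and 1, 8 and 0, and 1 and 0 in the same pairs. For cerebellum against bulb, leaving the bulb markers out of the library size gave 3 higher and 2 lower in each genotype. With no filter that pair had 4 higher and 1 lower in each genotype. The shares of all miRNAs called under these alternatives are not given here, so these splits were not set against a background. Library size scaling also moved the median of all miRNAs, as given below. Of the 39 wild type calls, 30 held under 4 other scalings and 32 held on leaving out each of the 23 libraries in turn. Of the 37 knockout calls, 29 and 27 did so. The count for wild type cerebellum against bulb fell to 4 without wild type cerebellum 2. Beside the cerebellum pairs, the summed level of 3 red blood cell miRNAs was 33981 to 38409 CPM in knockout cerebellum and 32090 to 47207 CPM in wild type cerebellum, against at most 10450 CPM in other groups, with 0 of the 3 at 0, and its part was not tested. The 7 choroid plexus and ciliated cell miRNAs summed to 10356 to 14228 CPM in knockout cerebellum and 11175 to 18505 CPM in wild type cerebellum.

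The ratio of the 2 arms of a precursor is measured within a library and does not depend on scaling between libraries. Adapter ligation and reverse transcription favour some ends over others, so the share of an arm is compared here between groups and not taken as its true share. For miR-127 the 5p arm held 3.64% and 2.99% of the counts of both arms in knockout hippocampus and 2.79%, 3.25% and 3.21% in wild type hippocampus. In cerebellum it held 3.15%, 3.02% and 3.20% in knockout libraries and 3.0005%, 3.33% and 2.73% in wild type libraries. In cortex it held 15.7%, 15.6% and 8.49% in knockout libraries and 15.6%, 15.0% and 10.9% in wild type libraries. Every cortex library was thus above every hippocampus and cerebellum library, with the libraries numbered 3 lowest in cortex. Olfactory bulb resembled cortex, with 15.1%, 16.7% and 11.5% in knockout libraries and 15.6%, 13.2% and 12.7% in wild type libraries.

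The log2 ratio of 5p to 3p counts of miR-127 differed in wild type by -2.32 between hippocampus and cortex (SE 0.22, limma adjusted p = 3.49e-07 over 198 precursors) and by -2.34 between hippocampus and bulb (SE 0.22, adjusted p = 3.02e-07). Between cerebellum and cortex it differed by -2.35 (SE 0.22, adjusted p = 1.37e-07), and between cerebellum and bulb by -2.37 (SE 0.22, adjusted p = 1.19e-07). Hippocampus and cerebellum differed by 0.03 and cortex and bulb by -0.02 (SE 0.22 each), with adjusted p values of 0.953 and 0.974. In size these 4 differences ranked 4th, 6th, 3rd and 5th of the 198 precursors. The knockout libraries gave -2.11, -2.29, -2.19 and -2.37 for the 4 pairs. Over the alternatives tried, including each library left out in turn, the 4 wild type differences stayed between -2.54 and -2.20 with a highest adjusted p of 7.51e-06.

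**Figure D4:**
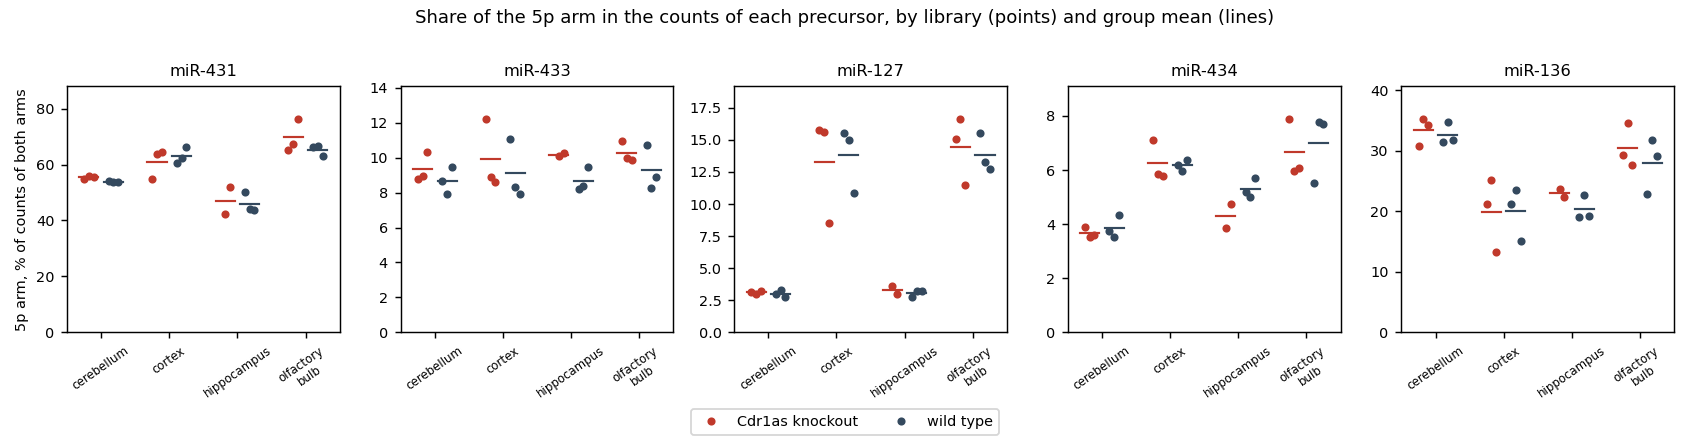
Share of the 5p arm (percent of the counts of both arms, each vertical axis starting at 0) for the 5 precursors by region, with knockout libraries (red) left of wild type libraries (dark blue) and group means as lines. The 5p share of miR-127 lies between 2.73% and 3.64% in cerebellum and hippocampus and between 8.49% and 16.7% in cortex and olfactory bulb, while that of miR-433 lies between 7.91% and 12.2% in all regions.

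Between hippocampus or cerebellum and cortex or bulb, the wild type log2 ratios of the other 4 precursors differed by less than that of miR-127. Between hippocampus and cerebellum miR-136, miR-434 and miR-431 differed by more (-0.93, 0.48 and -0.45, against 0.03). Between cortex and bulb miR-136 differed by -0.64, against -0.02 for miR-127. miR-431 was the only one with more 5p than 3p counts in 3 regions, its 5p arm holding 55.4% ± 0.530 in knockout cerebellum and 53.9% ± 0.242 in wild type cerebellum, and 69.8% ± 5.88 in knockout bulb and 65.3% ± 1.97 in wild type bulb (SD, n = 3 each). In hippocampus it held 42.3% and 51.9% in knockout libraries and 50.3%, 44.2% and 43.6% in wild type libraries. For miR-136 the 5p share was 33.5% ± 2.37 in knockout cerebellum and 32.7% ± 1.82 in wild type cerebellum, against 19.9% ± 6.06 in knockout cortex and 20.01% ± 4.36 in wild type cortex (SD, n = 3 each). The 5p arm of miR-434 held 3.66% ± 0.194 in knockout cerebellum and 3.86% ± 0.430 in wild type cerebellum, and 6.25% ± 0.736 in knockout cortex and 6.18% ± 0.217 in wild type cortex (SD, n = 3 each).

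In wild type libraries 2 of 5 member ratios passed the test between hippocampus and cortex (miR-127 and miR-431, with 7.58% of all 198 called), 2 between hippocampus and bulb (again miR-127 and miR-431, 16.2%), 3 between cerebellum and cortex (miR-127, miR-136 and miR-434, 14.6%) and 3 between cerebellum and bulb (miR-127, miR-431 and miR-434, 19.2%). Hippocampus against cerebellum had 1, miR-136 (7.07%), with a log2 ratio difference of -0.93 that lost the call without wild type cerebellum 2, wild type hippocampus 1 or wild type hippocampus 3 (adjusted p 0.0562 to 0.106). miR-434, with a difference of 0.48 and an adjusted p of 0.0510 in that pair, was called on leaving out any of 8 single libraries: wild type cerebellum 3, knockout cortex 1 or 3, wild type bulb 1 or 3, or knockout bulb 1, 2 or 3 (adjusted p 0.0222 to 0.0491). Without wild type bulb 1, hippocampus against bulb had 4 called, with miR-136 and miR-434 added (adjusted p 0.0449 and 0.00820). Cortex against bulb had 0 (4.55%), with 1 at an unadjusted p under 0.05, and miR-136 was called there without knockout cortex 3 or wild type bulb 1 (adjusted p 0.0480 and 0.0463). The call of miR-431 between cerebellum and bulb was lost without any 1 of 5 libraries, wild type cerebellum 1, 2 or 3 and wild type bulb 1 or 2 (adjusted p 0.0555 to 0.0870). The call of miR-136 between cerebellum and cortex was lost without wild type cortex 3 (adjusted p = 0.0608). Among 33 precursors of the rest of the Dlk1-Dio3 domain, the largest wild type difference in arm ratio between hippocampus and cortex was 1.71, for miR-409, and 2 of 33 were called. Hippocampus had 2 of 33 called against cerebellum and 9 against bulb. Cerebellum had 6 called against cortex and 6 against bulb, and cortex had 4 against bulb. Over the wild type pairs the largest difference was 1.90, for miR-493 between cerebellum and bulb.

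None of the 5 member ratios was called between genotypes. Averaged over regions, 0 of 5 member ratios were called by limma, where 0% of the 198 precursors were called and 9 of them, with 0 members, had an unadjusted p under 0.05. Within regions 0 of 5 were called and 0 had an unadjusted p under 0.05, where 0% of the 198 were called in cerebellum, hippocampus and olfactory bulb and 1.52% in cortex. The average log2 differences in the ratio of 5p to 3p, knockout minus wild type, were 0.03 for miR-127, 0.11 for miR-136, 0.08 for miR-431, 0.17 for miR-433 and -0.11 for miR-434. A two-sided exact permutation test of genotype within regions, with 80000 arrangements, gave unadjusted p values of 0.794, 0.379, 0.428, 0.0351 and 0.1501 in that order, of which the value for miR-433 is 1 of 5 computed.

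Within groups the members did not rise and fall as one block. After subtracting each group's mean, the log2 CPM values of the 45 pairs of members had a median Pearson r of 0.18 over the 23 libraries, beside 0.03 over pairs of the 306 miRNAs at least as abundant as the lowest member. The r values ran from -0.73 to 0.86, with 7 pairs above 0.5 and 5 below -0.5. The median fell to 0.05 without knockout bulb 2 and to 0.09 without knockout hippocampus 3. Points share libraries and depth, and the values are descriptions.

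The 2 arms of one hairpin were no closer to each other than arms of different hairpins, with median r values of 0.18 and 0.17. The highest values were 0.86 for miR-127-5p with miR-136-3p, 0.81 for miR-431-5p with miR-433-3p, 0.80 for miR-127-5p with miR-136-5p and 0.78 for the arms of miR-136. The lowest were -0.73 for miR-431-5p with miR-136-5p and -0.69 for miR-431-5p with miR-127-5p. The arms of miR-127 had -0.43, those of miR-434 -0.30, those of miR-433 0.18 and those of miR-431 0.32. Leaving out both cortex libraries numbered 3 changed the first 4 values to 0.66, 0.77, 0.36 and 0.47, the next 2 to -0.63 and -0.56, and that of the miR-127 arms to 0.06.

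The deviations also moved with depth. With the log2 library total, taken within groups, r was 0.70 for miR-127-5p, 0.64 for miR-136-3p and 0.55 for miR-136-5p. It was -0.64 for miR-431-5p, -0.60 for miR-127-3p and -0.50 for miR-433-3p. The 3 arms that were higher in deeper libraries have GC contents of 54.5%, 36.4% and 36.4%, and the 3 that were lower have 57.1%, 59.1% and 54.5%. The part of depth or base composition in these correlations was not tested.

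miR-136-5p varied most within groups, with an SD of 0.44 on the log2 scale, against 0.11 for miR-434-5p, which varied least. Its largest deviation was -1.05 in knockout cortex 3, the library with the lowest total. In that library miR-127-5p deviated by -0.43 and miR-136-3p by -0.40, while miR-127-3p deviated by 0.24.

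**Figure D5:**
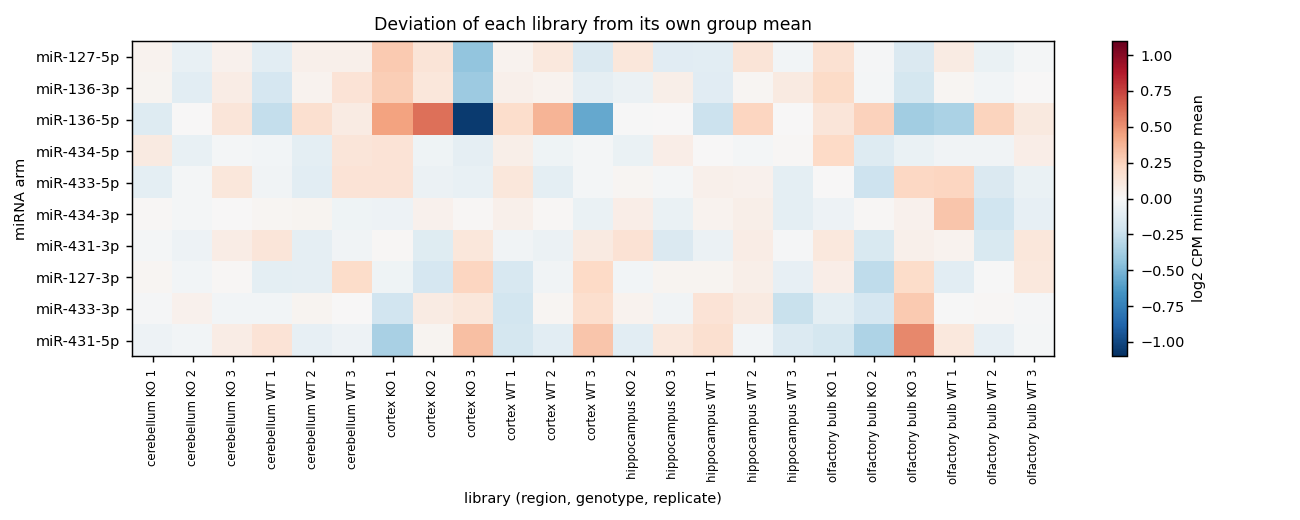
Deviation of each library's log2 CPM from its own group mean for the 10 arms (rows) in the 23 libraries (columns, with knockout left of wild type in each region). The 3 top arms, miR-127-5p, miR-136-3p and miR-136-5p, are low together in knockout cortex 3, where miR-136-5p deviates by -1.05, and the 3 bottom arms are above their group means there.

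The miRNAs whose pattern over the 23 libraries was most like the mean of the 10 members were miR-344b-3p (Pearson r = 0.96), miR-218-5p (0.96), miR-125b-2-3p (0.94), miR-411-3p (0.92) and miR-1843a-5p (0.92), of 659 compared. Only miR-411-3p of these 5 belongs to the Dlk1-Dio3 list, which supplied 11 of the 20 highest. The median r was 0.66 over the 80 tested arms of that list and 0.01 over all 659. The libraries fall into 4 regions, so the points are not independent of each other.

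The rest of the Dlk1-Dio3 domain was taken as a list of 53 precursors with 103 arms in the tables, of which 80 were tested. In the comparison of genotypes 0 of 80 were called in the average, in any region or in the test across regions, and their median log2 change in the average was -0.00. In wild type libraries 60 were higher and 0 lower in cortex than in bulb (median log2 difference 1.01, against 0.66 for the members), and 55 were higher and 2 lower in hippocampus than in bulb (0.83, against 0.67). Cerebellum had 3 higher and 52 lower than cortex (-0.76, against -0.49) and 24 higher and 13 lower than bulb (0.17, against 0.32). Hippocampus had 44 higher and 6 lower than cerebellum (0.68, against 0.33) and 0 higher and 7 lower than cortex (-0.10, against -0.10).

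By smallest p, miR-369-5p led the lower arms of 4 of these pairs. It averaged 132 CPM in wild type cerebellum, against 672.8 CPM in wild type cortex, a log2 difference of -2.35 (SE 0.12, adjusted p = 2.27e-12), which is opposite in direction to miR-127-3p. miR-409-3p was higher in wild type hippocampus, at 806 CPM, than in wild type cerebellum, at 216 CPM, by 1.90 (SE 0.14, adjusted p = 3.08e-10). miR-381-3p was higher in wild type cerebellum than in cortex, with 9204 and 5545 CPM and a log2 difference of 0.73 (SE 0.10, adjusted p = 3.57e-06). miR-376b-5p led the arms higher in hippocampus than in bulb (1.25), miR-299b-3p those higher in cerebellum than in bulb (1.79) and miR-411-3p those higher in cortex than in bulb (1.28). miR-381-3p led the arms lower in wild type hippocampus than in cerebellum, with a log2 difference of -0.55 (adjusted p = 0.000113). In knockout libraries miR-369-5p led the lower arms of the same 4 pairs, with -2.48 for cerebellum over cortex, and miR-329-5p led the arms higher in hippocampus (1.26) and in cortex (1.32) than in bulb. In the other knockout pairs the leading arms were miR-409-3p (2.10) and miR-381-3p (-0.49) for hippocampus over cerebellum, miR-381-3p (0.77) for cerebellum over cortex, miR-299b-3p (1.57) for cerebellum over bulb and miR-539-5p (0.98) for hippocampus over cortex.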

How the data were processed

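The deposited files, made by the authors, hold raw read counts per mature miRNA, 1 table for each of 23 libraries. RNA was isolated with TRIZOL and the libraries were built with Illumina's TruSeq Small RNA chemistry (per the labels' protocols), and reads were mapped to mm9, per the submitters' processing notes. The sources used here do not name the aligner, counter, trimming, miRNA annotation or handling of reads with several matches. Groups follow the labels.

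The counts were analysed with edgeR 4.0.16 in R 4.3.3. Names were kept by filterByExpr over 8 groups (minimum count 10, minimum total 15), TMM factors gave the CPM values, and 1 quasi-likelihood fit over all libraries gave every contrast, two-sided, with Benjamini-Hochberg adjustment over 669 miRNAs and a threshold of 0.05. SE is the log2 change divided by the square root of F. Arm ratios, log2 of 5p over 3p counts with 0.5 added, were fitted with limma 3.58.1 over 198 precursors. Within-group deviations used log2 CPM with a prior count of 2. DESeq2 1.42.0, limma-voom, other scalings, no filter, a replicate block and leaving out each library were alternatives, and the fits were tested on simulated data. Library pairs of a group differed beyond sampling noise (chi-square per degree of freedom 28.4 to 242 over 22 pairs), so no pair was treated as 1 library sequenced again. Such a check cannot show whether the libraries came from separate animals. Deviations of same-numbered knockout and wild type libraries had a positive r in every cerebellum pair (0.116, 0.374 and 0.103) and not in every pair of another region. Single pairs of cortex and bulb reached 0.140 and 0.139. Counting is by reads without molecular identifiers.

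All 10 members were tested and counted in each comparison, and values are printed for only some of them. Of the other Dlk1-Dio3 arms, the called arm with the smallest p per direction in each pair of regions is named. The 5 miRNAs most correlated with the members' mean are also named. Members and lists were chosen with earlier results of these data known.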

Additional observations from a re-analysis of the deposited data

How the results depend on the processing

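The counts of members called between genotypes were 0 under each of the 30 to 33 alternatives run for a comparison. For regions, library size alone, with or without the olfactory bulb markers in the total (the second chosen after seeing the data), raised hippocampus against cerebellum to 9 members in knockout and in wild type, against 5 each. Upper quartile scaling gave 1 member for knockout hippocampus against cortex and 5 for wild type cerebellum against cortex. The shares of all miRNAs called under such settings are not given beside these counts. Leaving out each library gave 4 to 7 members for wild type cerebellum against bulb and 1 to 2 for knockout hippocampus against cortex. For arm ratios it gave 0 to 2 for wild type hippocampus against cerebellum, 2 to 4 for hippocampus against bulb and 0 to 1 for cortex against bulb, and hippocampus against cerebellum had 2 with 5 added to each count or with only the 110 precursors that had at least 10 counts of each arm.

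Directions reversed under library size scaling for miR-431-5p (hippocampus over bulb 0.19 in knockout and 0.57 in wild type) and miR-136-5p (hippocampus over bulb 0.80 in knockout and 0.87 in wild type, cortex over bulb 0.71 in knockout), and under upper quartile scaling for miR-434-3p (wild type cerebellum over cortex 0.13). Library size alone moved the wild type median of all miRNAs to 0.92 for hippocampus over bulb and -0.66 for cerebellum over cortex. Of 6470 single alternative values, 113 lost a call, 88 gained one and 6 reversed. A reversal was counted only where the main or the alternative value was called. Among 3677 alternative values of results not called in the main fit, 284 changed sign. The cause was not tested.

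The labels do not say that replicate numbers pair libraries. Same-numbered knockout and wild type libraries of a region had r from -0.22 to 0.37, above 0.1 in 5 of 11 pairs, among them all 3 of cerebellum. Across regions of a genotype, r was -0.34 to 0.26, above 0.1 in 10 of 33 pairs, and 10 of 22 libraries correlated best with their own number. With a replicate block, genotype calls of members were 0, and region calls were 3 in place of 2 (wild type hippocampus against cortex), 6 in place of 5 (wild type hippocampus against cerebellum) and 7 in place of 6 (knockout cerebellum against bulb).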
